A study of Oryza sativa with 6 samples.

Results

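Acetylation of lysine 9 on histone H3 (H3K9ac) was compared between leaves of rice (Oryza sativa) infested with Spodoptera frugiperda for 12 h and leaves infested for 3 h. Each time had 2 libraries, and 2 libraries of uninfested control leaves served as background. All 6 libraries came from seedlings aged 20 days grown in soil in a greenhouse, so the groups shared age and growth conditions and differed in infestation and its length. Per the labels, leaf nuclei were used for CUT&Tag, an assay in which an antibody tethers a transposase that cuts and tags the DNA around a chromatin mark. The labels name no cultivar, do not say whether replicates were separate plants, and give no uninfested plants matched to each time. Time after infestation and time of day therefore cannot be told apart, and p-values measure the spread between libraries, which may be technical.

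H3K9ac neutralises a positive charge on the tail of histone H3. It is added by histone acetyltransferases of the GCN5 type and removed by histone deacetylases. In plants the mark lies mainly over the promoter and the first part of transcribed genes, and it is removed or added within hours when genes are switched. Spodoptera frugiperda, the fall armyworm, is a moth whose larvae chew the leaves of rice, maize and other grasses. In rice, chewing sets off jasmonate signalling and, downstream of it, the synthesis of protease inhibitors and volatile terpenes. A gene annotation of the build of the lists was not used here, so the regions are given by position and no gene is assigned to any of them. The identity of the tissue was likewise not checked against leaf genes.

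The intervals called on the 12 nuclear chromosomes in the 4 infested lists were merged wherever they overlapped by at least 1 bp. This gave 16968 merged regions, against 17468 when the 2 control lists were merged in as well. The lists held 11318 and 11029 regions at 12 h, and 10460 and 12234 regions at 3 h. Depth, as the number of fragments stacked at a summit, had a median of 14 and 13 in the 12 h libraries against 16 in either 3 h library. The level of fragments expected away from any peak was also lower at 12 h, at 1.49 and 1.43 fragments per position against 2.13 and 2.32 at 3 h. The smallest stack that was called as a peak was 6 fragments in both 12 h lists and 8 in both 3 h lists. Stacks of 6 or 7 fragments were thus called only at 12 h, and a call missing from a list means that the threshold was not passed there, not that acetylation was absent.

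The lists also hold peaks of the organelle genomes, and the chloroplast background divided the times most widely. The local background at chloroplast peaks, divided by the genome background of the library, was 8.09 and 8.23 at 12 h and 3.19 and 3.37 at 3 h, against 8.06 and 7.51 in control leaves. The 12 h and control libraries stood together on this ratio, and the 3 h libraries lay far under both. With 2 libraries against 2 an exact permutation test cannot give a p under 0.33, which was the p here. Chloroplast peaks numbered 29 and 28 at 12 h and 23 and 26 at 3 h, against 28 and 29 in control leaves. The same background ratio at mitochondrial peaks was 3.31 and 1.80 at 12 h and 1.61 and 1.77 at 3 h, against 4.26 and 3.74 in control leaves. Neither measure overlapped between the times, each with an exact p of 0.33, and the mitochondrial ratio of control leaves lay above both. The part of chloroplast DNA, depth or background in any result that follows was not tested, except where a value is given for it.

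Of the 16968 merged regions, 6268 were called in all 4 lists, which was 36.9% of them. Both 12 h lists and neither 3 h list called 681 regions, or 4.01%. Both 3 h lists and neither 12 h list called 666 regions, or 3.93%. The 2 one-time sets were thus close in size with the lists at full length, and both were smaller than the groups of regions that a single list called. With lists of equal length the sets held 731 regions of 12 h only and 640 of 3 h only. The 12 h lists called 1215 and 1173 regions that no other list called, together 2388. The 3 h lists called 985 and 1743 such regions, together 2728. Exactly 1 list of each time called 1563 regions, but these pool 4 pairs of lists, with 270, 519, 267 and 507 regions. Each one-time set is a single pair, and every pair across times called fewer regions than either one-time set. No test was made of these counts, because regions are not replicates of a condition. With only peaks of −log10 q of at least 5, 420 regions were of 12 h only, 431 of 3 h only and 1900 shared. Leaving out any 1 of the 4 libraries, which asks for 1 call or 1 missing call fewer, gave 1115 to 1978 regions of 12 h only and 1278 to 2451 of 3 h only. The 12 h set was the smaller without a 3 h library and the larger without a 12 h library.

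**Figure D1:**
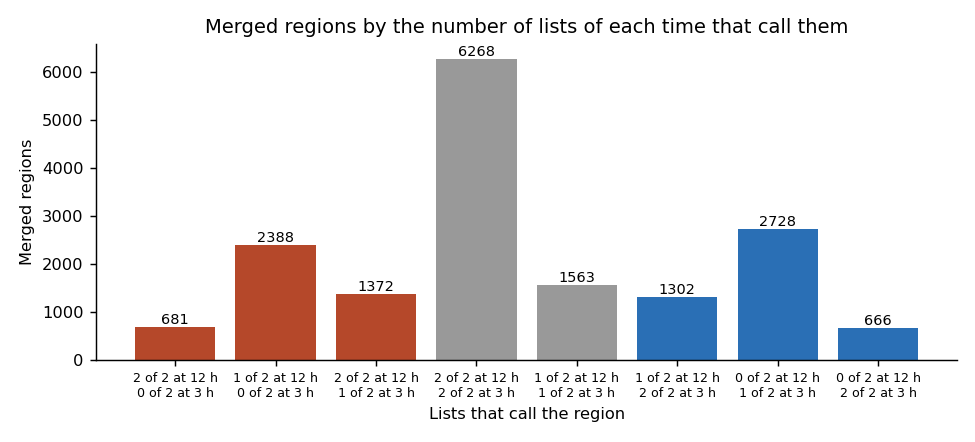
Number of merged regions (vertical axis) by how many of the 2 lists of 12 h and of the 2 lists of 3 h call them (horizontal axis), with patterns in more 12 h lists on the left and in more 3 h lists on the right. The bar for all 4 lists stands at 6268, and the outermost bars, the regions of one time only, stand at 681 for 12 h and 666 for 3 h.

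The first comparison asks whether the strength of the mark at the 6268 shared regions was ordered differently at 12 h and at 3 h. Strength was the fold of the strongest summit of a region over its local background, the authors' value for a peak. Folds were turned into ranks within each library, from 0 for the weakest shared region to 100 for the strongest, so that depth and list length do not shift all regions together. Regions differed in rank little more between times than between libraries of one time. The median absolute rank difference was 17.2 to 18.2 percentile points between a 12 h and a 3 h library, against 17.0 between the 12 h libraries and 16.5 between the 3 h libraries. Spearman's rho of the ranks across regions was 0.493 to 0.519 between times, 0.542 within 12 h and 0.561 within 3 h. These correlations describe regions that share libraries, and regions are not independent replicates.

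No shared region passed the test of a rank change. The limma fit across all 6268 regions, on normal scores of the ranks with Benjamini-Hochberg adjustment at 0.05, called 0 regions higher and 0 regions lower at 12 h (0% each). The smallest adjusted p was 0.406. At an unadjusted p under 0.05 there were 450 regions, 7.18% of those tested, of which 223 had a higher and 227 a lower rank at 12 h. Regions whose 2 libraries of one time both ranked above both of the other were 1102 in the higher direction (17.6%) and 1159 in the lower direction (18.5%). Ranks unrelated to time would not overlap at a share of about 0.33, both directions together. The 2 directions were close to equal, and the median rank change over all shared regions was 0.14 percentile points. The mean rank was more than 30 points higher at 12 h at 485 regions and more than 30 points lower at 497.

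The 12 regions with the largest mean rank change in each direction, among those whose libraries did not overlap, show how far single regions lay apart. The highest of them was chr5:22225707-22226489, with ranks of 97.6 and 70.3 at 12 h against 4.40 and 1.59 at 3 h. Its folds were 7.25 and 5.07 at 12 h and 2.86 and 2.60 at 3 h. Summit stacks there were 23 and 15 fragments at 12 h against 10 and 10 at 3 h. All 3 readings put both 12 h libraries above both 3 h libraries. The 12 h libraries had the lower genome background and the lower typical stack. Fold is a ratio to local background, so fold and rank depend on it, and its part here was not tested. The change in normal score was 3.18 with a standard error of 0.63, and the adjusted p of the limma fit was 0.406, the smallest of the table. Neither control list called this region.

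The region chr6:11461427-11462432 ranked 87.7 and 93.6 at 12 h against 17.2 and 13.6 at 3 h. Both control lists called it, with folds of 2.96 and 3.34, close to the 3 h folds of 3.34 and 3.25 and under the 12 h folds of 5.91 and 6.44. The libraries of a time lay close together here, so the gap was wider than the distance between replicates of either time. At chr9:15572925-15573626 ranks were 94.3 and 85.1 at 12 h against 10.5 and 27.1 at 3 h. At chr4:32852074-32853003, which stood 83100 bp from its nearest shared neighbour, ranks were 62.0 and 87.5 at 12 h and 5.10 and 9.02 at 3 h. The 12 h libraries stood apart from 3 h at both, but lay further from each other than at the chromosome 6 region. Across the 12 regions of higher rank the 12 h ranks ran from 62.0 to 97.6 and the 3 h ranks from 0.69 to 31.5. They lay on 6 chromosomes, and all had 1 summit in both 12 h libraries.

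In the lower direction the largest mean change was at chr6:522769-523944. It ranked 28.1 and 9.91 at 12 h against 97.8 and 90.9 at 3 h, with stacks of 13 and 13 fragments at 12 h and 33 and 32 at 3 h. Both control lists called it, with folds of 3.64 and 5.71, beside folds of 3.90 and 3.30 at 12 h and 6.71 and 5.68 at 3 h. The second control library thus lay beside the 3 h libraries and the first beside the 12 h libraries. The region lies in the first Mb of chromosome 6, a stretch in which regions called at one time only were also those of 3 h, as given with the windows.

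At chr7:910095-910796 ranks were 32.7 and 3.09 at 12 h against 85.3 and 93.4 at 3 h. Its control folds of 4.32 and 6.43 were again called in both lists. The region chr8:4679517-4680205 ranked 3.39 and 6.17 at 12 h and 75.4 and 74.2 at 3 h, with stacks of 7 and 7 fragments against 16 and 15. Here neither control list had a call, and the 12 h stacks of 7 were under the smallest stack that either 3 h list called. At chr12:26912720-26914462, 113813 bp from the nearest shared region, ranks were 26.9 and 24.99 at 12 h and 96.8 and 89.5 at 3 h, with 1 summit in each 12 h library and 2 in each 3 h library. Across the 12 regions of lower rank the 12 h ranks ran from 3.09 to 40.1 and the 3 h ranks from 65.1 to 97.8. At least 1 control list called 10 of these 12 regions, against 5 of the 12 that ranked higher at 12 h and 67.0% of all shared regions.

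**Figure D2:**
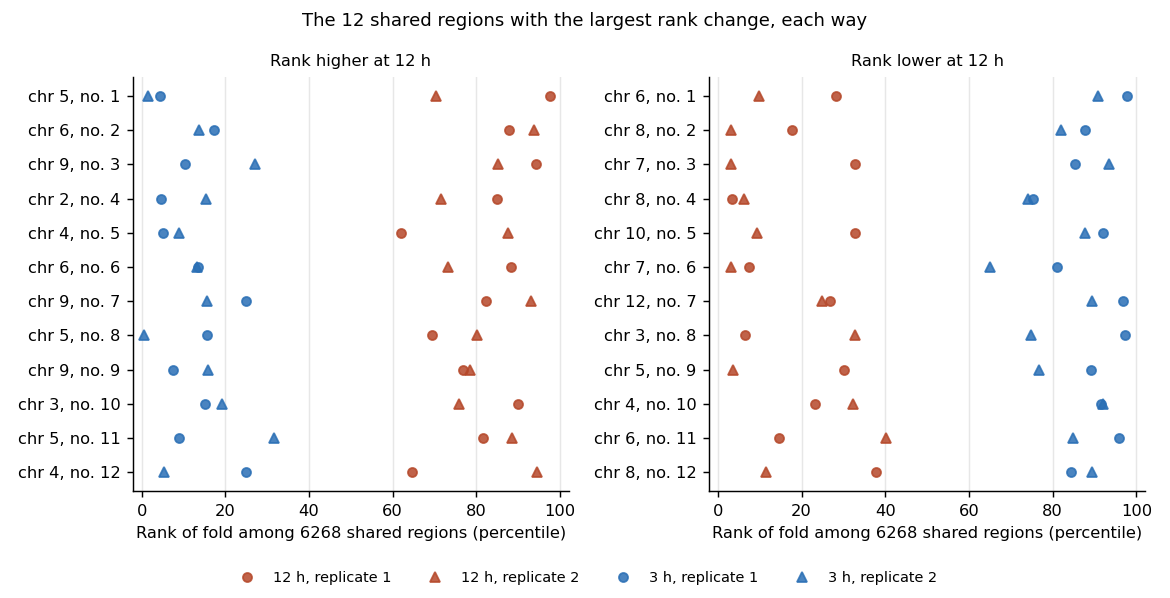
Rank of the fold among the 6268 shared regions in percentiles (horizontal axis) for the 12 regions with the largest mean rank change in each direction (rows, named by chromosome and order), with 1 point for each library. In the left panel the 12 h libraries sit between 62.0 and 97.6 and the 3 h libraries between 0.69 and 31.5, and in the right panel the 12 h libraries sit between 3.09 and 40.1 and the 3 h libraries between 65.1 and 97.8. The regions were picked for this gap.

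The same lean appeared over all shared regions when they were divided by their calls in control leaves. Of the 2068 shared regions that no control list called, 18.6% ranked higher and 15.9% lower at 12 h with no overlap between libraries. Of the 2654 that both control lists called, 16.8% ranked higher and 20.5% lower. The median rank change was 1.45 points for the regions with no control call and -0.59 for those called in both control lists. Read against 17.6% and 18.5% over all shared regions, these are departures of at most a few points. All 6 libraries, the infested ones included, were also ranked anew over the 2654 regions called in all 6 lists. The sets without overlap on these new ranks differ from the 446 higher and 543 lower regions behind the shares above. Among the 518 regions that ranked lower at 12 h on the new ranks, the mean control rank lay nearer the 3 h value at 288 and nearer the 12 h value at 230. Among the 481 that ranked higher, it lay nearer the 3 h value at 257 and nearer the 12 h value at 224. The control leaves thus stood between the times at regions picked for a gap, with no large tilt to either.

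Chromosome 11 departed furthest from the rest in rank. Of its 351 shared regions, 37 ranked higher at 12 h with no overlap, which was 10.5%, and 84 ranked lower, which was 23.9%. The mean rank of its regions was 54.3 and 53.4 at 12 h against 56.2 and 57.6 at 3 h. The difference was -3.11 points, with group means of 53.8 ± 0.63 at 12 h and 56.9 ± 0.99 at 3 h (SD, n = 2 each). The exact permutation p was 0.33, the smallest possible, and 12 chromosomes were looked at. On the other 11 chromosomes the difference in mean rank lay between -1.23 on chromosome 12 and 1.19 on chromosome 4. Ranked by fold, libraries of the 2 times did not overlap on chromosomes 2, 9 and 11. Whatever value is ranked, mean ranks unrelated to time would not overlap on a share of about 0.33 of chromosomes.

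The lean of chromosome 11 had the same direction when regions were ranked by other values. By −log10 q the mean ranks were 49.9 and 48.4 at 12 h against 51.9 and 52.6 at 3 h, and by summit stack they were 45.2 and 43.9 at 12 h against 46.7 and 46.9 at 3 h. Regions that ranked higher and lower without overlap numbered 42 and 89 by −log10 q, and 59 and 91 by summit stack. The 12 h libraries were lower on all 3 scales. The scales are read from the same summits of the same libraries, so they are not separate support. Libraries of the 2 times were also apart on chromosomes 1, 2, 4 and 10 by −log10 q, and on chromosomes 4 and 10 by summit stack. Along chromosome 11 the lower regions outnumbered the higher ones in each 5 Mb stretch. The contrast was 5 higher and 19 lower between 15 and 20 Mb, and 11 higher and 17 lower between 20 and 25 Mb. At the 149 regions of chromosome 11 called in all 6 lists, ranked among such regions, the 12 h libraries had means of 53.2 and 52.9 and the 3 h libraries of 56.0 and 60.3, against 52.4 and 53.8 in control leaves. Both 3 h libraries were above the 12 h and control libraries here. They lay further from each other, though, than the first of them lay from any 12 h or control library. On chromosome 12 the control libraries alone had means of 57.8 and 53.2, so the place of the times beside the control is only a description.

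**Figure D3:**
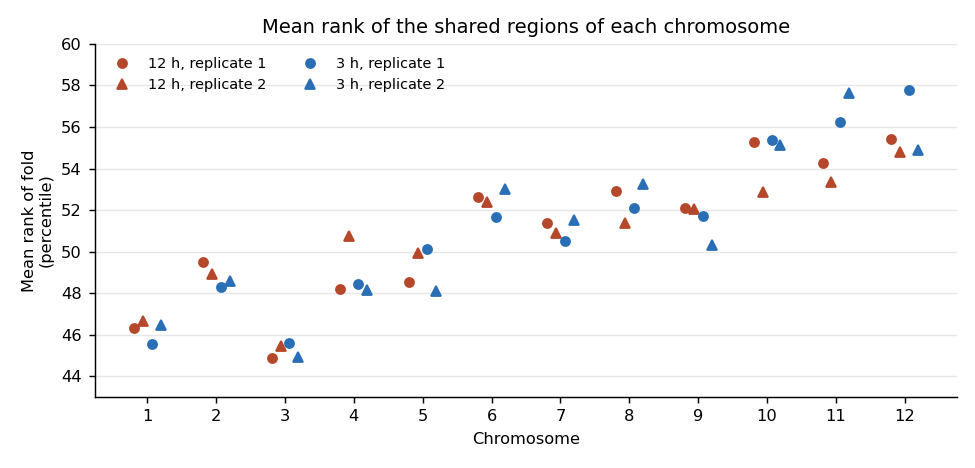
Mean rank of the fold, in percentiles (vertical axis, not starting at 0), over the shared regions of each of the 12 chromosomes (horizontal axis), with 1 point for each library. On chromosome 11 both 12 h libraries, at 54.3 and 53.4, lie under both 3 h libraries, at 56.2 and 57.6, while on most chromosomes the points of the times are mixed.

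Smaller stretches were ranked in windows of 1 Mb. Of 309 windows with at least 10 shared regions, the mean rank was higher in both 12 h libraries than in both 3 h libraries in 55 and lower in 70. Mean ranks unrelated to time would be apart in this way in a share of about 0.33, both directions together. The largest difference towards 12 h was in chr6:25000001-26000000, with mean ranks of 57.8 and 58.0 at 12 h against 43.3 and 43.4 at 3 h over 17 regions. Of those 17 regions, 7 ranked higher and 3 lower without overlap, so the difference did not come from 1 region. The second was chr7:28000001-29000000, with 58.7 and 56.8 at 12 h against 43.3 and 46.1 at 3 h over 20 regions. The largest difference towards 3 h was in chr5:15000001-16000000, with 53.0 and 67.0 at 12 h against 75.4 and 76.4 at 3 h over 12 regions. It adjoins chr5:14000001-15000000, where the means were 56.0 and 68.2 at 12 h against 56.5 and 44.8 at 3 h. Neighbouring windows thus differed in direction. These windows were picked as the extremes of the list and were not tested.

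The next readout was called width, the number of bases of a merged region that a list covers. Mean widths at the 6268 shared regions were 823 and 854 bp at 12 h against 788 and 835 bp at 3 h. The second 3 h library lay between the 12 h libraries, so the groups overlapped. The group means were 839 ± 22.6 bp for 12 h against 812 ± 33.6 bp for 3 h (SD, n = 2 each), a difference of 26.9 bp with an exact permutation p of 0.667, two-sided. The limma fit on log2 width called 0 regions wider and 0 narrower at 12 h (0% each), with a smallest adjusted p of 0.325. At an unadjusted p under 0.05 there were 472 regions, of which 307 were wider and 165 narrower at 12 h.

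Without overlap between libraries, 1385 regions were wider (22.1%) and 942 narrower (15.0%) at 12 h. As for ranks, widths unrelated to time would not overlap at a share of about 0.33, both directions together. Wider regions made up 59.5% of these. The split moved with the scaling of the lists. After each library's log2 widths were centred on their median over the shared regions, 1173 regions were wider and 1196 narrower, so that 49.5% were wider. The surplus of wider over narrower regions was larger where uninfested leaves had no call: 24.7% of the 2068 regions without a control call were wider and 11.4% narrower. Of the 2654 regions called in both control lists, 20.3% were wider and 17.5% narrower. The shares with and without control calls use widths before centring, so the scaling of the lists enters them. Mean width over the regions with no control call was 705 bp at 12 h and 650 bp at 3 h, while over those with both control calls it was 978 bp at 12 h and 974 bp at 3 h.

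Single regions differed in called width by up to several times. The 12 of largest width change in each direction were picked after their values had been seen. Regions called more than 2 times wider on average, again without overlap, numbered 83, and 36 were more than 2 times narrower. The largest difference towards a wider call was at chr5:1080561-1082038, called over 1149 and 1478 bp at 12 h against 377 and 388 bp at 3 h. It had 2 summits in each 12 h library and 1 in each 3 h library, and no control list called it. Its log2 width change was 1.77 with a standard error of 0.24 and an adjusted p of 0.325 in the limma fit. At chr12:3068724-3070143 widths were 1420 and 1272 bp at 12 h against 500 and 323 bp at 3 h, also with no control call. At chr3:32884773-32886403 they were 981 and 1397 bp at 12 h against 369 and 356 bp at 3 h, and control leaves, at 968 and 762 bp, were on the 12 h side. By this count most regions wider at 12 h differed from it. Of the 539 regions that were wider at 12 h without overlap and called in both control lists, the mean control width lay nearer the 3 h value at 430 (79.8%), with median widths of 1049 bp at 12 h and 793.5 bp at 3 h, against 689 bp in control leaves. Control widths were below both times over all regions called in the 6 lists, with medians of 918.75 bp at 12 h and 923 bp at 3 h, against 707.25 bp in control leaves. The time picked as narrower thus tends to be the nearer one, and this count places control leaves with neither time.

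The largest difference towards a narrower call was at chr8:23034275-23036455, with 369 and 576 bp at 12 h against 1628 and 2162 bp at 3 h. Control leaves had intermediate widths there of 991 and 1033 bp. At chr9:22563992-22565654 widths were 390 and 416 bp at 12 h and 1534 and 1653 bp at 3 h, against 1331 and 1445 bp in control leaves. Its rank was also lower, 1.68 and 0.89 in the 12 h libraries against 34.7 and 59.4 in the 3 h libraries. At chr4:14742549-14744374 widths were 622 and 598 bp at 12 h and 1718 and 1800 bp at 3 h, against 1489 and 1535 bp in control leaves. In these last 2 regions the control widths lay nearer 3 h. Over all narrower regions most lay nearer 12 h, the time picked as narrower. Control widths were in the median below both times, so this count again places control leaves with neither time. Of the 465 regions that were narrower at 12 h without overlap and called in both control lists, the mean control width lay nearer the 12 h value at 352 (75.7%), with median widths of 801.5 bp at 12 h and 1072 bp at 3 h, against 757.5 bp in control leaves. Both control lists called 63.9% of the 36 regions more than 2 times narrower at 12 h, against 22.9% of the 83 more than 2 times wider and 42.3% of all shared regions. Shared regions called in both control lists were also wider on average than those with no control call, and the part of width in this share was not tested.

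**Figure D4:**
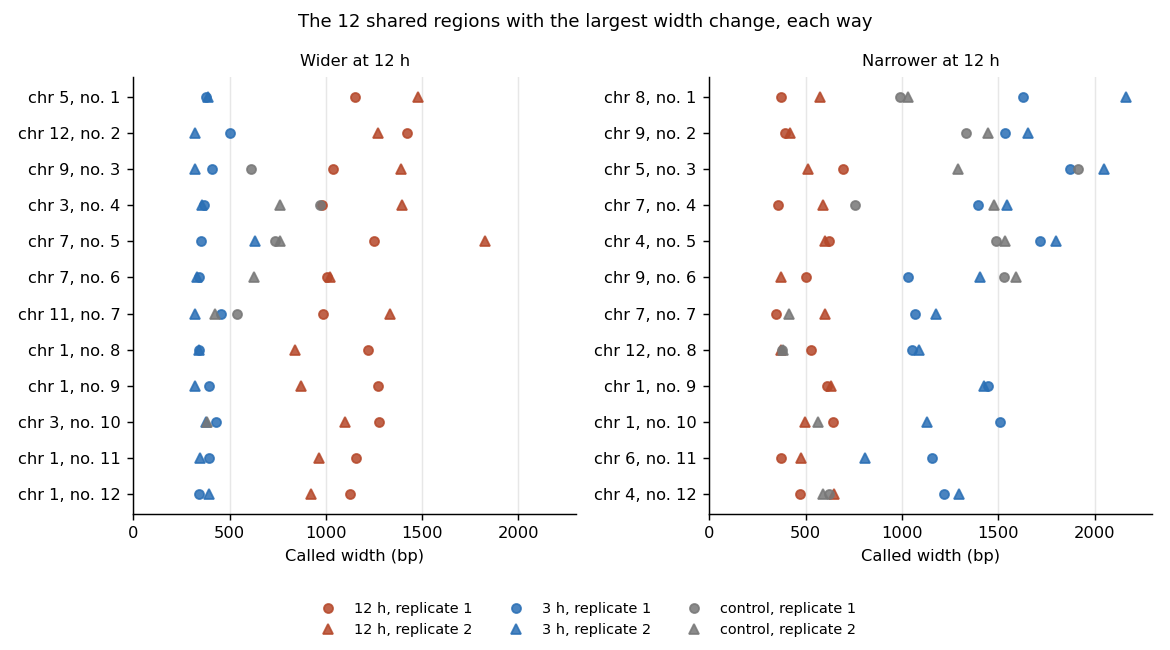
Called width in bp (horizontal axis) of the 12 shared regions with the largest width change in each direction (rows, named by chromosome and order), with 1 point for each library, control leaves included where a control list called the region. In the left panel the 12 h libraries lie between 838 and 1826 bp and the 3 h libraries between 323 and 632 bp, and in the right panel the 12 h libraries lie between 345 and 691 bp and the 3 h libraries between 810 and 2162 bp.

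The changes of rank and of width were only loosely related. Across the 6268 regions, Pearson's r of the rank change and the width change was 0.155, as a description over regions that share the same libraries. Of the 1102 regions of higher rank, 28.9% were wider and 10.3% narrower at 12 h. Of the 1159 regions of lower rank, 17.5% were wider and 21.2% narrower. Both shares shifted in the direction of the rank from the 22.1% and 15.0% of all shared regions.

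The number of summits, the local maxima that the caller reports within an interval, was slightly lower at 12 h. Means at the shared regions were 1.21 and 1.17 summits at 12 h against 1.22 and 1.28 at 3 h. The libraries did not overlap, and the difference was -0.058 summits with an exact permutation p of 0.33, the smallest possible. Without 1 library at a time the difference ran from -0.0747 to -0.0275 summits, and it was -0.0275 without 3 h replicate 2. Means were 1.19 ± 0.025 at 12 h and 1.25 ± 0.041 at 3 h (SD, n = 2 each). The share of shared regions with more than 1 summit was 18.73% and 15.9% at 12 h against 19.8% and 24.4% at 3 h. The lower number went with a lower median summit stack at these regions, 16 and 16 fragments at 12 h against 18 and 19 at 3 h, and its part in the count of summits was not tested.

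Without overlap between libraries, 98 regions had more summits at 12 h (1.56%) and 199 had fewer (3.17%). Changes in either direction were found mostly in wide regions: 64 of the 98 regions with more summits and 127 of the 199 with fewer were among the 1565 widest. Fewer summits were more frequent among regions called in both control lists, 113 of 2654 or 4.26%, than among regions without a control call, 32 of 2068 or 1.55%. The former were also wider, with a mean of 978 bp at 12 h against 705 bp. The part of width in these shares was not tested. Of the 199 regions with fewer summits, 45.7% were also narrower at 12 h, and of the 98 with more, 65.3% were wider. Summit number and width are 2 readings of one called interval, and Pearson's r of their changes across regions was 0.422.

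The largest difference towards fewer summits was at chr5:20154260-20156495, with 1 and 1 summits at 12 h against 3 and 4 at 3 h. Its width overlapped between the times, at 2038 and 1796 bp at 12 h and 1884 and 2152 bp at 3 h, and its stacks were slightly higher at 12 h, at 36 and 36 fragments against 32 and 31. The interval had a single maximum at 12 h, with stacks no lower than at 3 h. At chr12:24455195-24457502 there were 2 and 2 summits at 12 h and 4 and 4 at 3 h, again at similar width, 1799 and 1850 bp at 12 h against 1817 and 2241 bp at 3 h. By contrast chr12:23717608-23719606, with 1 and 1 summits at 12 h and 3 and 3 at 3 h, had stacks of 13 and 11 fragments against 24 and 27. In the other direction chr7:3258353-3259760 had 2 and 3 summits at 12 h against 1 and 1 at 3 h. It was also wider, at 1078 and 1408 bp against 580 and 510 bp, and ranked higher, at 63.7 and 47.5 against 4.24 and 12.2. It is the one of the 12 regions named for summits at which width, rank and summit number were all higher at 12 h without overlap, and neither its width change nor its rank change passed the limma test. Summit numbers of single regions were not tested.

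The second comparison concerns the regions of one time only. Both sets were weak. The lower of a region's 2 within-list fold percentiles had a median of 22.0 for the 681 regions of 12 h and 22.8 for the 666 regions of 3 h, against 38.1 for the lowest of 4 percentiles at shared regions. Both percentiles were above 50 at 101 regions of the 12 h set and 108 of the 3 h set, and above 90 at 8 and 5. The median stack was 11 and 11 fragments in the 12 h set and 13 and 14 in the 3 h set, under the 16 and 16 and the 18 and 19 of shared regions in the same libraries. Called widths were also smaller, with medians of 475 and 534 bp at 12 h and 473 and 486 bp at 3 h. The 2 sets thus resembled each other in strength and width, and both were weaker and narrower than the shared regions.

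They differed in their relation to uninfested leaves. A control list called 92 of the 681 regions of 12 h only, or 13.5%, and 234 of the 666 regions of 3 h only, or 35.1%. Both control lists called 29 (4.26%) of the 12 h set and 105 (15.8%) of the 3 h set. For comparison, 67.0% of the shared regions had a control call. Genome background was 1.49 and 1.43 fragments in the 12 h libraries and 2.13 and 2.32 in the 3 h libraries, against 2.43 and 2.004 in control leaves. The smallest called stack was 6 fragments in either 12 h list and 8 in either 3 h list, against 9 and 8 in control leaves, so on both measures the control libraries stood nearer 3 h. The part of background and calling threshold in the difference between the sets was not tested. The difference of -21.6 percentage points had the same direction in each control list: 6.75% and 23.6% in the first, 11.01% and 27.3% in the second. Without either 3 h library the sign turned, to 1.96 points without replicate 1 and to 0.68 points without replicate 2. In those comparisons the 3 h set needs a call in only 1 list while the 12 h set needs 2, so the sets were no longer built alike. Without a 12 h library the reverse holds, and the difference was -26.2 points without replicate 1 and -23.0 points without replicate 2. Its size and sign thus moved with the number of calls that a set needs.

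A comparison with 1 list of each time, which is built alike on both sides, gave the same direction in all 4 pairings. Regions called in a 12 h list and not in a 3 h list had a control call in 15.0%, 12.4%, 14.1% and 11.9% of cases. Regions called in the 3 h list of the same pair and not in the 12 h list had one in 22.0%, 18.0%, 23.3% and 19.6%. The part of the lower 12 h threshold in these shares was not tested either. The pairings share libraries and were not tested as independent. When the 2 control lists were merged with each other, 3174 regions were called in both. The 12 h lists called 90.5% and 90.3% of these, against 92.4% and 94.9% in the 3 h lists. Means were 90.4 ± 0.13% at 12 h and 93.6 ± 1.76% at 3 h (SD, n = 2 each), a difference of -3.20 percentage points with an exact permutation p of 0.33, the smallest possible.

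**Figure D5:**
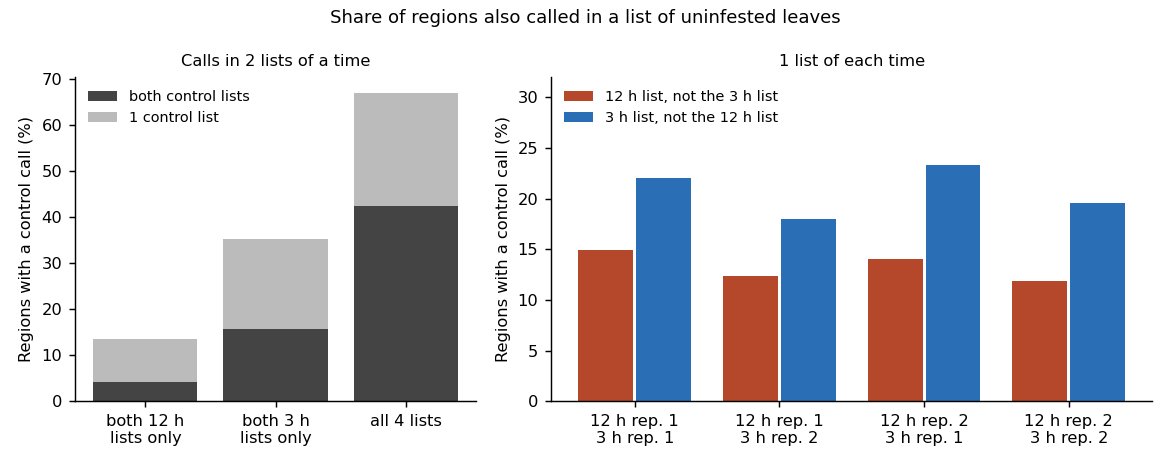
Percent of regions that a control list also calls (vertical axes). The left panel stacks regions with 1 and with both control calls for the 681 regions of 12 h only, the 666 regions of 3 h only and the 6268 shared regions, and the right panel sets regions called in 1 list of 12 h and not in 1 list of 3 h beside the reverse, for the 4 pairs of lists. The 3 h bar is the taller in every pair.

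Control calls were most frequent among the strongest regions of both sets. Where the lower percentile was 75 or more, 9 of 19 regions of 12 h only had a control call (47.4%) and 13 of 16 regions of 3 h only (81.3%). Where it was under 25, the shares were 11.6% of 380 regions of 12 h only and 33.5% of 352 regions of 3 h only. It was higher for 3 h only in each of 4 classes of strength. The difference between the sets was thus present among weak and among strong regions.

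Among the 12 strongest regions of 12 h only, 5 had no control call. The strongest of these 5 was chr10:10897948-10898461, with folds of 7.15 and 7.09 and stacks of 18 and 19 fragments in the 12 h lists. Its nearest shared region was 11842 bp away. At chr1:29081106-29082034 the folds were 6.54 and 6.38, with stacks of 22 and 22 fragments, and at chr4:34489946-34491512 they were 5.64 and 5.54, with stacks of 42 and 40. The last had the deepest stacks and, at 1323 and 1543 bp, the greatest width of the 12, although its fold was not among the highest. Its local background was 4.45 and 4.48 times the genome background, so the same fold stood for a deeper stack. The remaining regions without a control call were chr4:4640176-4641048, with folds of 6.05 and 6.10, and chr8:7730156-7731032, with folds of 5.63 and 5.76.

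The other 7 of the 12 had a control call, and they include the highest folds of all. At chr4:9132954-9133586 folds were 14.1 and 9.90 at 12 h, no call was made at 3 h, and folds in control leaves were 10.2 and 6.66. The region was 606 and 618 bp wide at 12 h and 625 and 576 bp wide in control leaves, so its widths were alike in both. At chr2:14252954-14253430 folds were 9.89 and 7.25 at 12 h and 7.46 and 6.29 in control leaves. At chr2:14247161-14247717, on the same stretch of chromosome 2, they were 8.73 and 6.99 at 12 h and 4.90 and 4.16 in control leaves. At chr4:9156147-9156682, near the first region on chromosome 4, they were 6.03 and 6.59 at 12 h and 5.24 and 6.32 in control leaves. These regions were called in the 12 h and the control libraries and missing from the 3 h libraries, which is also how the libraries fell on the chloroplast background ratio given above. Whether DNA of chloroplast origin contributes to the folds of these regions was not tested.

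Of the 12 strongest regions of 3 h only, 8 were called in both control lists and 1 in 1 of them. The strongest was chr3:21999974-22001111, with folds of 7.12 and 6.74 and stacks of 44 and 46 fragments at 3 h, and folds of 6.14 and 4.85 in control leaves. Its called width was 1117 and 1078 bp at 3 h and 956 and 1132 bp in control leaves. A broad region with stacks this far over the calling threshold was thus missing from both 12 h lists. At chr1:23607258-23608598 folds were 6.30 and 5.83 at 3 h and 4.71 and 5.78 in control leaves. At chr9:6388632-6389729, which lay 127769 bp from any shared region, folds were 6.62 and 5.29 at 3 h and 4.94 and 4.02 in control leaves. At chr3:25219746-25221064 the control folds, 6.26 and 7.05, were above the 3 h folds of 5.66 and 5.02. In all 4 the call of uninfested leaves was present after 3 h of infestation and missing after 12 h.

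The 3 of these 12 regions with no control call were chr5:17433127-17433634, with folds of 5.44 and 5.13, chr1:4337621-4338495, with 4.90 and 4.90, and chr1:29522720-29523204, with 4.80 and 4.52. Their stacks were 16 and 16, 22 and 21, and 14 and 14 fragments in the 3 h lists. Folds of the 12 h lists run higher in general, with a median of 4.45 in both lists at shared regions against 4.11 and 4.13 at 3 h, so folds of different lists stand side by side here only as a description.

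One-time regions lay scattered over the genome. Of 378 windows of 1 Mb with a merged region, 298 held a region of 12 h only and 297 a region of 3 h only. More 12 h than 3 h regions were found in 151 windows and fewer in 150. By chromosome, 12 h regions were 3.20% and 3 h regions 4.58% of the merged regions on chromosome 6, 44 and 63 regions. On chromosome 8 the order was the reverse, 4.45% and 3.11%, and on chromosome 10 the shares were 5.20% and 3.98%. The shares over all chromosomes were 4.01% and 3.93%.

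The most uneven windows lay on chromosomes 10 and 6. At chr10:18000001-19000000, 6 regions were of 12 h only and 0 of 3 h only, among 65 merged regions. At chr6:1-1000000, 0 were of 12 h only and 7 of 3 h only, again among 65 merged regions. That window also holds chr6:522769-523944, the shared region whose rank was lower at 12 h by the most. The far end of the same chromosome had the same lean, with 1 region of 12 h only and 6 of 3 h only at chr6:30000001-31000000. The windows were picked as extremes and were not tested.

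The 2 sets differed in their distance to shared regions. Within 2 kb of a shared region lay 12 regions of 12 h only (1.76%) and 37 of 3 h only (5.56%), against 76 shared regions (1.21%) within 2 kb of another shared one. Farther than 50 kb from any shared region lay 120 regions of 12 h only (17.6%) and 89 of 3 h only (13.4%), against 15.5% of shared regions. Median distances were 18508 bp for 12 h only, 16836 bp for 3 h only and 18268 bp for shared regions. By these counts regions of 3 h only were more often close neighbours of shared regions and regions of 12 h only more often isolated. Windows of 1 Mb were also classed by their number of shared regions. In the 95 windows with the fewest, 0 to 11, 4.796% of merged regions were of 12 h only and 3.99% of 3 h only. In the 3 classes of denser windows the shares were 3.86% to 3.90% for 12 h only and 3.70% to 4.52% for 3 h only. Shared regions count among the merged ones, at 31.9% in the first class and 36.0% to 39.3% in the others. Windows picked for few shared regions leave larger shares to other regions, so these shares do not show isolation. Few one-time regions were displaced calls of the other time: 50 regions of 12 h only (7.34%) and 61 of 3 h only (9.16%) had a call of the other time within 1 kb, and 279 and 252 had none within 10 kb. These shares of regions are a description and were not tested.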

How the data were processed

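H3K9ac CUT&Tag peak lists of 2 libraries each at 12 h and 3 h of infestation and in control leaves were used. The submitters' processing notes name MACS2 2.1.0, Bowtie 1.1.2, Trimmomatic 0.33 and bcl2fastq 2.17, and build IRGSP-1.0. How duplicates were treated, and whether an input was used, is not given in the sources used here. For every library the authors deposited each peak's summit fold over local background (a ratio), −log10 p-value, −log10 q-value and summit offset. The lists have no header, so these meanings follow the peak format. Fold, p and q are the authors' own and refer to 1 list each.

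Peaks with equal start and end were 1 region with several summits. Regions of the 12 nuclear chromosomes overlapping by at least 1 bp over the 4 infested lists were merged, with 1-based positions. A control call is an overlap with a control list. Whole summit stacks and local backgrounds were recovered from fold and −log10 p for 100% of peaks (tolerance 0.001), and the lowest local background of a list is its genome background. Read totals were not used here.

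Shared regions were fitted with limma 3.58.1 in R 4.3.3 (eBayes, two-sided, Benjamini-Hochberg at 0.05), tested on simulated data. Exact permutation tests over libraries were run in Python 3.11.15. The labels do not say that replicate numbers pair libraries, so no block was used in the main fits. Named regions come from the 12 with the largest rank change and the 12 strongest of one time each way, and the 6 each way with the largest summit change. Width extremes, windows, chromosome 11 and control shares were chosen after values were seen. All regions and lists were chosen with earlier results of these data known. Gene lists and leaf and seed markers were not applied, since no annotation of the build was used here.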

Additional observations from a re-analysis of the deposited data

Results flagged for a closer look

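Signal outside the nuclear chromosomes was present in all infested libraries. At chloroplast peaks the local background averaged 8.16 times the genome background at 12 h and 3.28 times at 3 h, against 7.78 times in control leaves, with an exact permutation p of 0.33 between 12 h and 3 h. The 12 h libraries, at 8.09 and 8.23, lay beside the control libraries, at 8.06 and 7.51, and the difference of their means was within the control SD of 0.388. The 3 h value was below both. Peaks on unplaced scaffolds averaged 9.5 at 12 h and 10.5 at 3 h, against 6.5 in control leaves. With 2 libraries a group, no group could be searched for a library that stands apart.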

How the results depend on the processing

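With only peaks of −log10 q of at least 5 kept, 420 regions were of 12 h only, 431 of 3 h only and 1900 in all 4 lists. With lists of equal length, these counts were 731, 640 and 5718. Leaving out each library in turn gave 1115 to 1978 regions of 12 h only and 1278 to 2451 of 3 h only, since a set then needs 1 call fewer or escapes 1 list fewer. The difference in control calls, 12 h only minus 3 h only, ran from -26.2 to 1.96 percentage points; it turned to 1.96 without 3 h replicate 1 and to 0.68 without 3 h replicate 2, and was -20.4 to -22.0 points under the other list settings, which were added for this result after seeing the data. Every limma alternative run for rank and width, leave-one-out fits included, called 0 regions, with 402 to 750 at an unadjusted p under 0.05; in those leave-one-out fits the lone library is assumed to vary like the others. The mean width difference ran from 6.53 to 52.1 bp without 1 library. Deviations of same-numbered libraries correlated at 0.0007 for rank and 0.020 for width, which does not settle whether replicate numbers pair libraries. With the replicate block, 0 regions were called, with smallest adjusted p of 0.144 for rank and 0.322 for width, and the differences of 26.9 bp and -0.058 summits had an exact p of 0.5, the smallest possible. Summit stacks of 13 to 16 fragments limit all values of single regions.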
